A study of Mus musculus with 10 samples.

Results

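The major histocompatibility complex (MHC) genes H2-K1, H2-D1, H2-Q4, H2-Q7, H2-T22, H2-T23, H2-M3, H2-Aa and H2-Ab1, together with B2m, were compared between 2 inbred strains, C57BL/6J (B6) and DBA/2J (D2), in the nucleus accumbens (NAc). The 10 genes were chosen by name, by matching the Ensembl identifiers of the gene count table to these symbols, and all 10 were among the 29883 genes of the table. The study sequenced poly-A RNA of the NAc, which belongs to the ventral striatum, from 5 ethanol-naive male mice of each strain, 9 weeks old, with 1 library per mouse. B6 and D2 are the progenitors of the BXD recombinant inbred mice, and no mouse carried a transgene or received a treatment. B6 carries the b haplotype of the mouse MHC (H2) and D2 the d haplotype, and the reads of both strains were aligned to the B6 genome.

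MHC class I molecules present peptides from inside the cell to CD8 T cells and natural killer cells, and each consists of a heavy chain paired with the invariant light chain B2m. MHC class II molecules present peptides taken up from outside, consist of an alpha and a beta chain, and are made mainly by antigen-presenting cells, which in the brain include microglia and border macrophages. In the brain, class I molecules are made by endothelial cells and microglia and also by some neurons, where they have been linked to synaptic pruning.

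Class I heavy chain genes share parts of their promoters, and these are shown first because all 9 promoters at hand hold the core letters of an interferon response element, of which 7 are printed, those of the class I genes with more than a few counts and of B2m. Promoter sequences (250 bases before to 50 after the RefSeq start) were taken from RefSeq on GRCm39 for 9 of the 10 genes. The stretches printed for H2-D1, H2-Q4, H2-T23 and B2m lie wholly within annotated exons of the same or an overlapping gene. Each sequence below holds 30 bases, 5′ to 3′ on the gene's strand, and the capitals mark the match to TTTCNNTT on either strand.
H2-K1, chr17:34219390-34219419, minus strand: ctccacagTTTCACTTctgcacctaacctg
H2-D1, chr17:35481912-35481941, plus strand: ctcctcagTTTCACTTctgcacctaacctg
H2-Q4, chr17:35598432-35598461, plus strand: ctccccagTTTCACTTctgctcctaacttg
H2-T22, chr17:36353804-36353833, minus strand: tggcttagTTTCACTTtcgaatccccaact
H2-M3, chr17:37581016-37581045, plus strand: ctctgaggTTTCACTTctctgtaactctgt
H2-T23, chr17:36343696-36343725, minus strand: cctactgcTTTCTCTTtcataaagacacaa
B2m, chr2:121978023-121978052, plus strand: gaacatgaAACTGAAAatgggaaagtccct
H2-K1, H2-D1, H2-Q4, H2-T22 and H2-M3 held the same 8 letters, and B2m held its match on the other strand. TTTCNNTT occurred in 23.9% of all 32851 promoters, ATTGG (an inverted CCAAT box, either strand) in 37.4%, and both in 9.28%. All 9 promoters held both, H2-Q7 and H2-Aa included. The letters were chosen after these promoters had been read, and a match describes the window only. D2 sequence was not used here.

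Of the 10 genes, 9 differed between the strains, with an adjusted p under 0.05 in edgeR's quasi-likelihood test with Benjamini-Hochberg adjustment over all genes. H2-Q4, H2-M3 and H2-Ab1 were higher in D2 mice, and H2-K1, H2-D1, H2-T22, H2-T23, H2-Aa and B2m were lower. H2-Q7 did not pass. Without both B6 replicates 3 and 5, the libraries with the highest cortex neuron marker levels, 2 genes were higher, 6 were lower and H2-M3 no longer passed. Over all 29883 genes, 18.3% passed, with 8.5% higher and 9.83% lower in D2. The values of the 5 B6 and the 5 D2 mice did not overlap for the same 9 genes, against 16.0% of all genes. For each of these 9, the two-sided exact permutation test over all assignments of the mice gave p = 0.0079, the smallest it can give with n = 5 per strain. Values that do not overlap always give this p, so it adds nothing to the absence of overlap. The median log2 fold change was -0.31 over the 10 genes and 0.0036 over all genes. Values below are normalised read counts, that is counts scaled to a common library size, as mean ± SD over 5 mice, and a log2 fold change is D2 against B6 with its standard error (SE).

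**Figure D1:**
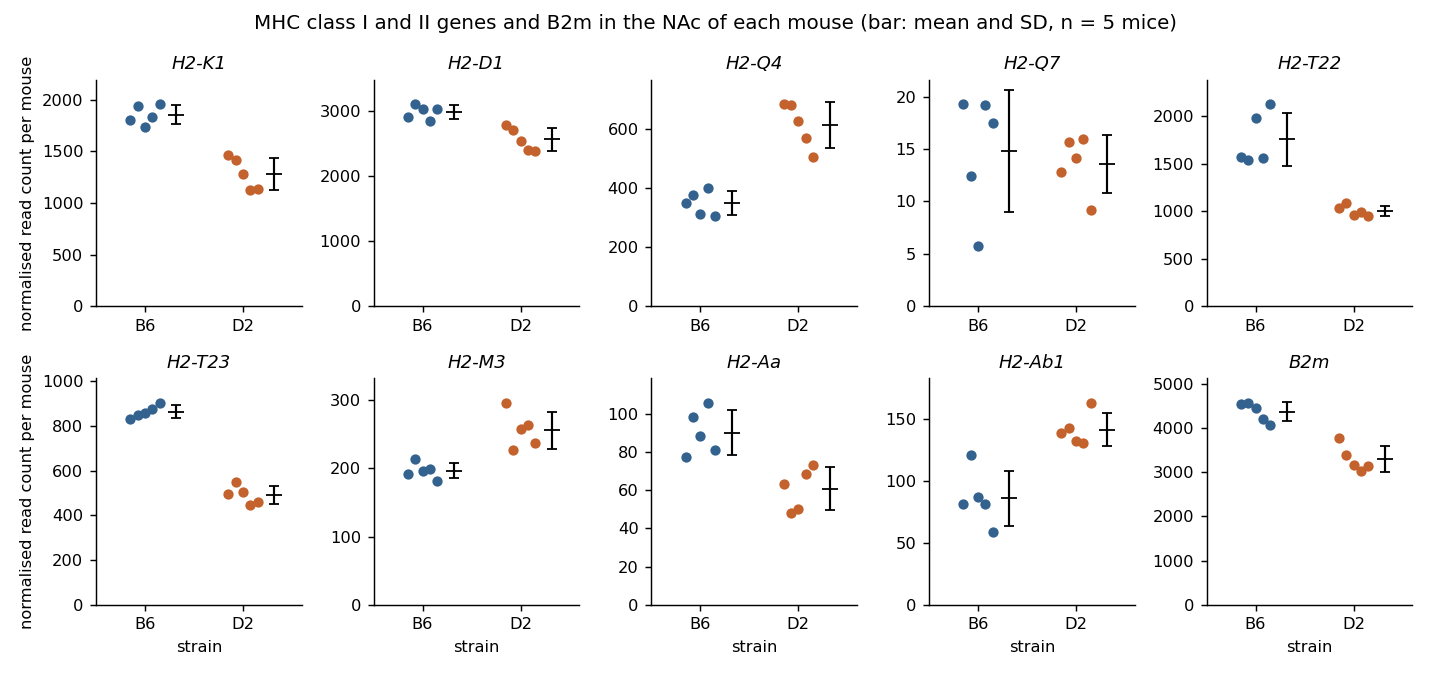
Normalised read counts (y axis, each panel from 0) of the 10 genes in each of the 5 B6 (blue) and 5 D2 (orange) mice, 1 point per mouse; the bars beside the points give the mean and SD. The strains overlap in the H2-Q7 panel only.

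H2-K1 and H2-D1 encode classical class I heavy chains, which present peptides to CD8 T cells, and both fell in D2. H2-K1 (chr17:34214987-34219321) had 1804, 1940, 1734, 1835 and 1958 normalised reads in the 5 B6 mice, and 1461, 1410, 1278, 1125 and 1135 in the 5 D2 mice. Every D2 mouse lay below every B6 mouse. The means were 1854 ± 94.0 in B6 and 1282 ± 154 in D2, a log2 fold change of -0.53 (SE 0.077, edgeR adjusted p = 2.7e-04). H2-D1 (chr17:35481691-35486475) had 2896, 3101, 3026, 2846 and 3024 normalised reads in B6, and 2778, 2710, 2533, 2389 and 2378 in D2. Its gap was narrow, since the highest D2 mouse lay only just under the lowest B6 mouse. The change of H2-D1 was the smallest of the 9, at -0.22 (SE 0.051, edgeR adjusted p = 0.0085), from 2979 ± 105 to 2557 ± 182.

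The ratio of H2-K1 to H2-D1 counts also differed between the strains. In each mouse the count of H2-K1 was divided by that of H2-D1, which removes library size. The ratio was 0.62 ± 0.030 in B6 and 0.50 ± 0.025 in D2, and its ranges, 0.573 to 0.647 and 0.471 to 0.526, did not overlap. Against B2m, the ratio of H2-D1 was 0.683 ± 0.038 in B6 and 0.777 ± 0.028 in D2, with ranges that overlapped. The ratio of H2-K1 to B2m was 0.426 ± 0.036 in B6 and 0.388 ± 0.022 in D2, also with overlap. D2 reads were aligned to the B6 genome, and they may align to these genes to an unequal degree. In these ratios such a difference cannot be told apart from one in RNA level. Levels of H2-K1 and H2-D1 varied together among mice of the same strain, with a Pearson r of 0.89 over 10 mice after each strain was centred on its mean, as a description.

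B2m (chr2:121977957-121983594) is the light chain of every classical class I molecule and lies outside the H2 complex, on chromosome 2. It had 4539, 4571, 4450, 4206 and 4071 normalised reads in B6 mice and 3774, 3386, 3166, 3025 and 3135 in D2 mice. All 5 D2 mice were below all 5 B6 mice. B2m fell from 4367 ± 219 to 3297 ± 297, a log2 fold change of -0.41 (SE 0.059, edgeR adjusted p = 3.1e-04), which places it between H2-D1 and H2-K1. No 75-base stretch of the B2m transcript was found in another gene's transcript on the B6 genome.

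The non-classical class I genes went in both directions. H2-T23 encodes Qa-1, which presents leader peptides of other class I chains to CD94/NKG2 receptors and it was lower in D2. H2-T23 (chr17:36340229-36345571) had 831, 850, 860, 878 and 904 normalised reads in B6, and 495, 547, 504, 446 and 460 in D2. The strains were far apart, with no D2 mouse above 547 and no B6 mouse below 831. Its log2 fold change was -0.82 (SE 0.066, edgeR adjusted p = 1.5e-06), and leaving out any 1 mouse kept it between -0.86 and -0.78.

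H2-T22, whose product is a ligand of some gamma-delta T cell receptors, fell to a like degree but with an uneven spread in B6. H2-T22 (chr17:36348020-36353650) had 1572, 1544, 1981, 1562 and 2130 normalised reads in B6, and 1029, 1085, 961, 997 and 951 in D2. B6 replicates 3 and 5 stood above the other 3 B6 mice, and even the lowest B6 mouse was above every D2 mouse. The log2 fold change was -0.81 (SE 0.094, edgeR adjusted p = 4.5e-05). The same 2 mice had the highest level of cortex neuron markers, and without both of them the log2 fold change of H2-T22 was -0.64, still past the threshold. With the cortex marker level as a covariate it was -0.86, also past the threshold.

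H2-Q4 encodes Qb-1, a non-classical class I protein, and rose in D2. H2-Q4 (chr17:35598586-35604274) had 349, 376, 314, 402 and 304 normalised reads in B6, and 686, 682, 629, 572 and 505 in D2. The lowest D2 mouse was above the highest B6 mouse. Its mean rose from 349 ± 41.1 to 615 ± 77.1, a log2 fold change of 0.82 (SE 0.105, edgeR adjusted p = 1.1e-04). H2-M3, which presents peptides that begin with N-formylmethionine, as those of bacteria and mitochondria do, was higher in D2 by a smaller amount. H2-M3 (chr17:37581106-37585384) had 192, 213, 196, 199 and 182 normalised reads in B6 and 296, 227, 257, 263 and 237 in D2. The ranges were apart by a small margin, and the log2 fold change was 0.38 (SE 0.092, edgeR adjusted p = 0.0110). Without both B6 replicates 3 and 5 it was 0.35, with an edgeR adjusted p of 0.0519. H2-Q7, which encodes Qa-2 heavy chain, was near the limit of detection. H2-Q7 (chr17:35658131-35662749) had between 5 and 20 counts per B6 library and between 9 and 17 per D2 library, and its log2 fold change of -0.14 (SE 0.31, edgeR adjusted p = 0.83) lay within the spread between mice.

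The class I genes resemble each other, which bears on how reads were assigned. Coding sequences of H2-K1, H2-D1 and H2-Q4 on the B6 genome were between 90.6% and 92.0% identical in pairs, whereas H2-K1 and H2-M3 shared 73.8%. Of the 150-base windows of each main transcript, 11.6% of those of H2-Q7 were found letter for letter in another gene's transcript, most of them in H2-Q6. For H2-D1 the share was 1.78%, for H2-T22 0.901% and for H2-T23 0.831%, and it was 0 for the other 6 genes. With 75-base windows the share rose to 27.5% for H2-Q7, 25.8% for H2-T22 (most with H2-T10), 14.6% for H2-T23, 8.46% for H2-Q4, 6.85% for H2-D1 and 1.55% for H2-K1. How the counting treated reads with several matches is not stated, so the counts of the genes with shared windows are uncertain, most of all those of H2-Q7, which had the highest share at both lengths. When the counts of the 7 class I heavy chain genes were summed in each mouse before the fit, the log2 fold change of the sum was -0.37 (SE 0.053). Every D2 sum, at most 6759 normalised reads, was below every B6 sum, at least 7663. Summing all 24 genes of the table with an H2 class I symbol gave -0.26. These were picked by symbol and include pseudogenes and a non-coding RNA (H2-T11-ps, H2-M6-ps and the entries named H2-K2). A D2 read with many differences from the B6 genome can fail to align, and a lower level in D2 cannot be told apart from such loss in these counts. A D2 read of another gene may also align to a similar B6 gene. A higher level in D2 cannot be told apart from such a gain.

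H2-Aa and H2-Ab1 encode the alpha and beta chains of one class II molecule, I-A, and they differed between the strains in opposite directions. H2-Aa (chr17:34493404-34506798) had 77.2, 98.2, 88.3, 106 and 81.3 normalised reads in B6, and 63.3, 47.9, 50.1, 68.6 and 73.4 in D2. The highest D2 mouse came close to the lowest B6 mouse. The log2 fold change was -0.57 (SE 0.155, edgeR adjusted p = 0.0216). It did not pass without B6 replicate 2 (-0.54), B6 replicate 4 (-0.51), D2 replicate 2 (-0.50) or D2 replicate 3 (-0.52), with edgeR adjusted p between 0.0515 and 0.0562.

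H2-Ab1 (chr17:34476663-34488393) had 81.1, 121, 87.1, 81.3 and 58.6 normalised reads in B6, and 139, 143, 132, 131 and 163 in D2. B6 replicate 2 was the highest of its strain and still below every D2 mouse. H2-Ab1 rose from 85.8 ± 22.5 to 141 ± 13.1, a log2 fold change of 0.72 (SE 0.164, edgeR adjusted p = 0.0078). The ratio of H2-Aa to H2-Ab1 counts within each mouse was therefore 1.09 ± 0.24 in B6, between 0.812 and 1.39, and 0.429 ± 0.074 in D2, between 0.336 and 0.525. No D2 ratio reached the lowest B6 ratio. The limit of alignment given for the class I ratios holds for this ratio too. H2-Aa shares 118 exon bases with H2-Eb1 on the opposite strand, and reads from there can be told apart only if the counting used the strand, which is not stated. The class I genes have longer overlaps with non-coding genes on the opposite strand, and the unknown strand setting bears on them too. H2-T22 shares 1020 exon bases in this way, H2-K1 855, H2-D1 723, H2-Q4 583, H2-T23 409 and H2-Q7 248.

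Other class II genes also moved in both directions. Of 12 genes for class II chains and loading, all measured, 4 were higher in D2, 3 were lower and 5 did not pass, with a median log2 fold change of 0.15. The shares over all genes were 8.5% higher and 9.83% lower. H2-Ea, the alpha chain of the other class II molecule, I-E, had 3 counts in all 5 B6 libraries together and 236 in the 5 D2 libraries. The ratio of normalised counts was 72.1 (95% exact interval 24.4 to 352, for counting error only). As background, the b haplotype carries a deletion at the start of H2-Ea and does not make the I-E molecule. H2-Eb1, the beta chain of I-E, went the other way and fell from 100 ± 14.1 to 45.0 ± 7.27, a log2 fold change of -1.15 (SE 0.152, edgeR adjusted p = 1.4e-04).

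H2-DM, which loads peptides onto class II molecules, showed the same kind of split among the counts of its genes. H2-DMa was higher in D2, with a log2 fold change of 0.35, and so was H2-DMb2, with 0.39. H2-DMb1 fell from 187 ± 48.4 to 74.8 ± 10.1, a log2 fold change of -1.32 (SE 0.180, edgeR adjusted p = 1.7e-04). H2-DMb1 and H2-DMb2 lie close together on chromosome 17, and sequence shared between them was not sought. The limits of alignment given for the class I genes hold for the class II genes of H2 too. H2-Oa, the alpha chain of the H2-DM inhibitor H2-O, was lower with -1.05, and Ifi30, a thiol reductase of antigen processing, was higher with 0.44. Without both B6 replicates 3 and 5 Ifi30 did not pass (0.33, edgeR adjusted p = 0.0563). Cd74, the invariant chain that all class II molecules need, is encoded outside the H2 complex and had 233 ± 60.7 normalised reads in B6 and 249 ± 55.6 in D2. Its log2 fold change of 0.10 (SE 0.18, edgeR adjusted p = 0.79) was within the spread between mice.

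**Figure D2:**
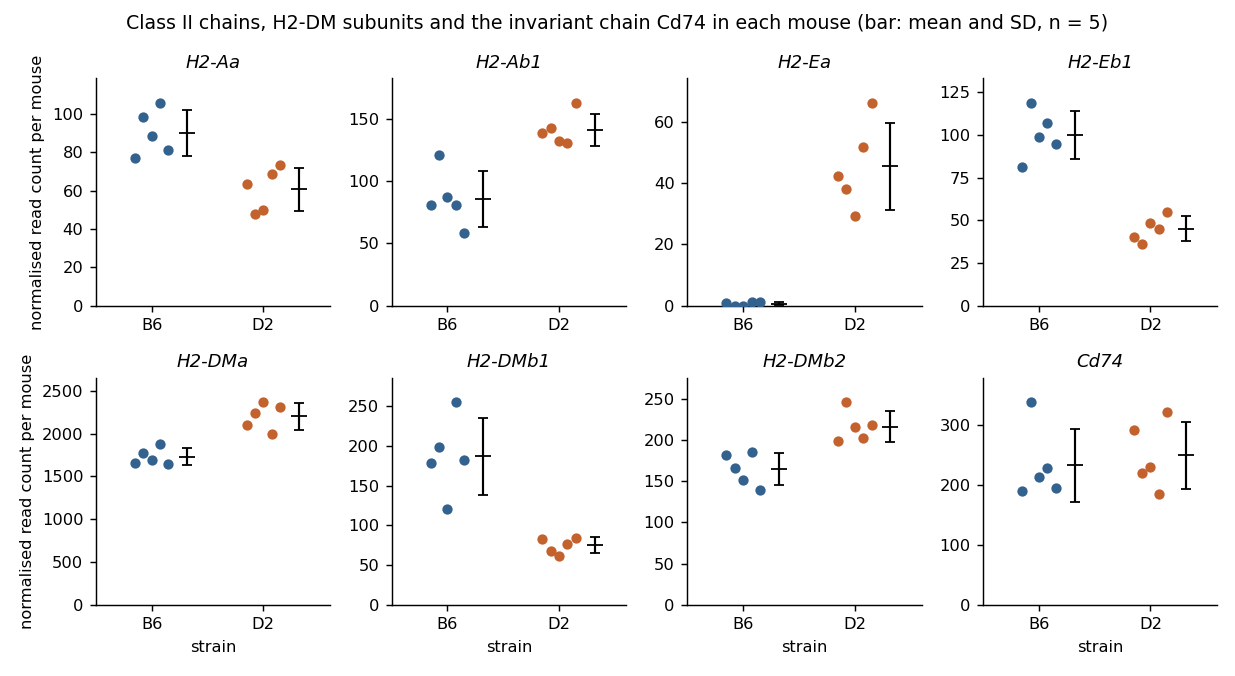
Normalised read counts (y axis, each panel from 0) of 8 class II genes in each of 5 B6 (blue) and 5 D2 (orange) mice, with the mean and SD beside the points. H2-Aa and H2-Eb1 are lower and H2-Ab1 and H2-Ea higher in D2, whereas the strains overlap for Cd74.

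Of 13 genes that supply and load class I peptides, 2 were higher in D2, 0 were lower and 11 did not pass, a share near the 18.3% of all genes, with a median log2 fold change of 0.033. Tap1 and Tap2, the subunits of the peptide transporter, had log2 fold changes of -0.08 (edgeR adjusted p = 0.63) and -0.13 (edgeR adjusted p = 0.16). Tapbp, the bridge between the transporter and class I, had 0.14 (SE 0.047, edgeR adjusted p = 0.057). Among the immunoproteasome subunits, Psmb10 rose from 1347 ± 51.8 to 1699 ± 175, a log2 fold change of 0.34 (SE 0.067, edgeR adjusted p = 0.0033). Psmb8 and Psmb9 did not pass, with -0.09 and -0.05. Pdia3, a chaperone of the loading complex, was higher by 0.10 (SE 0.028, edgeR adjusted p = 0.024), and this call was lost in the fits without B6 replicate 3, 4 or 5 or D2 replicate 3, 4 or 5, where the log2 fold change was between 0.09 and 0.10.

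Of 12 genes for MHC transcription, 1 was higher, 1 was lower and 10 did not pass, again a share near that of all genes. Nlrc5, the transactivator of class I genes, had between 111 and 146 normalised reads in B6 mice and between 185 and 248 in D2 mice. It rose by 0.64 on the log2 scale (SE 0.118, edgeR adjusted p = 0.0018). Of the class I genes compared here, H2-Q4 and H2-M3 were higher as well, and H2-K1, H2-D1, H2-T22 and H2-T23 were lower. Rfxank, a subunit of the RFX complex that binds class I and class II promoters, fell from 1600 ± 49.4 to 1154 ± 58.5, a log2 fold change of -0.47 (SE 0.048, edgeR adjusted p = 1.5e-05). Ciita, the class II transactivator, was at 14 ± 4.1 normalised reads in B6 and 14 ± 5.9 in D2 (edgeR adjusted p = 0.996), too few to show a modest difference. Without both B6 replicates 3 and 5, 4 of the 12 genes passed.

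**Figure D3:**
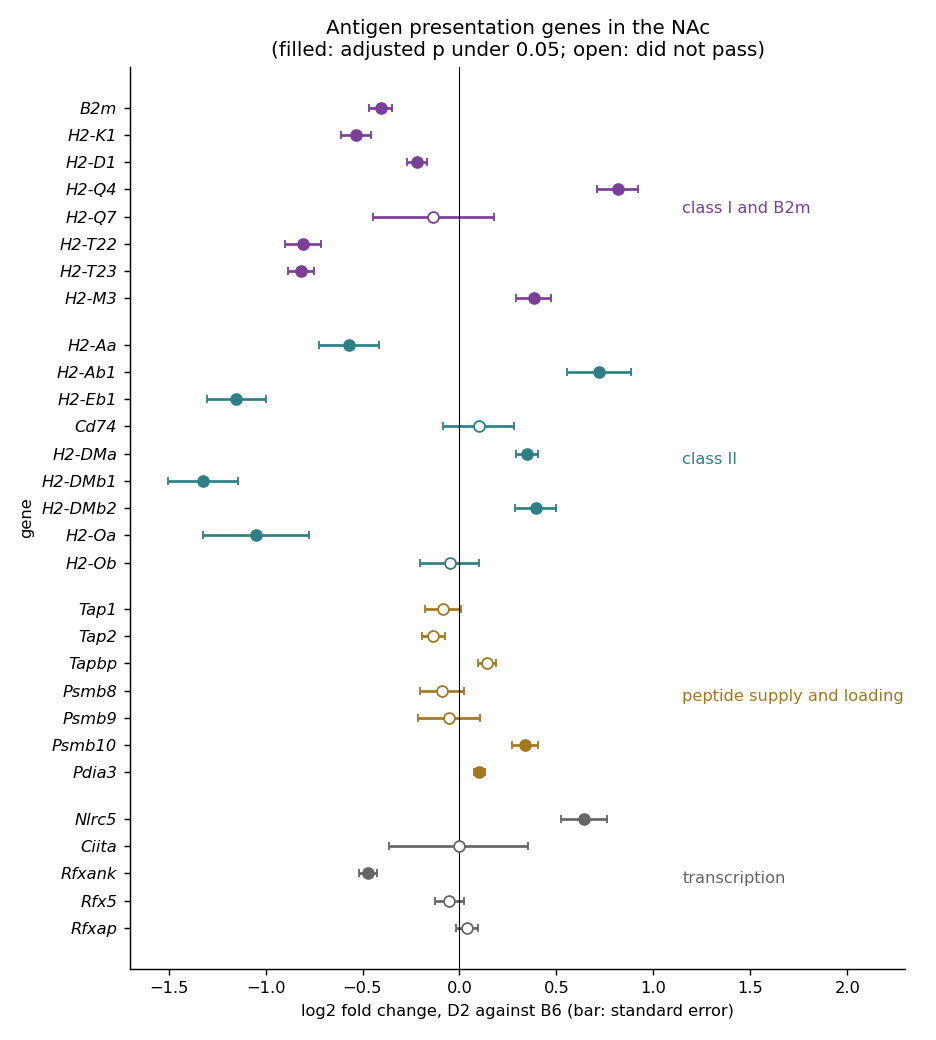
Log2 fold change of D2 against B6 (x axis, bars give the SE) for the class I genes compared here, B2m and a selection of class II, peptide supply and loading, and transcription genes. Not all genes of these lists are drawn, and H2-Ea is among those left out. Filled points passed an adjusted p of 0.05 and open points did not. Points of the class I and class II groups lie on both sides of 0.

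Among receptors and partners of MHC molecules, 7 of 9 listed genes were measured, and 4 were lower in D2, 0 were higher and 3 did not pass. Over all genes, 9.83% were lower in D2 and 8.5% were higher. Cd4, a class II coreceptor, had a log2 fold change of -0.60 (SE 0.134, edgeR adjusted p = 0.0071), Lag3, a class II ligand, had -0.56 (SE 0.086), and Tyrobp, a signalling adaptor of microglia and natural killer cells, had -0.57 (SE 0.096). The fourth, Klrd1, averaged under 10 normalised reads in both strains and is named although the naming rule leaves it out. Of 6 class I-like genes outside H2, 5 were measured, and Hfe, a regulator of iron uptake whose protein binds B2m, fell from 380 ± 27.2 to 251 ± 20 (log2 fold change -0.60, SE 0.083). The other 4 did not pass.

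Within each strain the 10 genes spanned a wide range of levels. In CPM per kb, a rate scaled to library size and divided by exon length, B2m was highest in B6 at 19.2 ± 0.96, followed by H2-D1 at 9.22 ± 0.32, H2-K1 at 5.39 ± 0.27 and H2-T22 at 4.75 ± 0.75. H2-K1 and H2-T22 overlapped in B6. H2-T23 followed at 2.34 per kb, then H2-M3 at 0.998 and H2-Q4 at 0.921, which overlapped, then H2-Ab1 at 0.309 and H2-Aa at 0.195, which overlapped, and last H2-Q7 at 0.032. In D2 the per-kb order began in the same way, with B2m at 14.5 ± 1.31, H2-D1 at 7.91 ± 0.56, H2-K1 at 3.73 ± 0.45 and H2-T22 at 2.72 ± 0.15. Below these, H2-Q4 at 1.62 per kb came before H2-T23 at 1.33 and H2-M3 at 1.30, and neighbours in this group overlapped. H2-Ab1 at 0.510, H2-Aa at 0.131 and H2-Q7 at 0.029 per kb then stood apart from each other. The length used joins all annotated exons of a gene and can far exceed its main transcript. It was 4292 bases for H2-Aa, whose main transcript has 1128, and 2568 for H2-Ab1, whose main transcript has 1212. The order of genes close in level rests on this choice, and an order by main transcript was not computed.

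The H2 interval on chromosome 17, from the start of H2-K1 to the end of H2-M3 (chr17:34214987-37585384), held 187 genes of the table. Of its 155 genes that are not named H2, 20 were higher and 12 lower in D2, that is 20.6% passed, beside 18.3% of all genes. Of the 23 other H2 genes, 13 were higher and 5 were lower, 78.3% in all, and of the 9 compared here 3 were higher and 5 were lower. The 15 others of the interval with an H2 class I symbol, the pseudogenes H2-T11-ps and H2-M6-ps among them, included 10 higher and 2 lower in D2. Their median log2 fold change was 1.08. The entries named H2-K2 are not part of the interval and were lower in D2. The pseudogene entry had 20 counts in B6 and 0 in D2, and the non-coding RNA entry had 185 and 50. These shares are descriptions, and no test compared them. The limits of alignment given above hold for them in both directions.

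Under the naming rule for the interval, the largest decreases were those of H2-Q2, from 183 to 34.7 normalised reads (log2 fold change -2.39), Tsbp1 (-1.66), H2-DMb1, H2-T23 and H2-T22. The largest increases were those of Msh5, from 78.9 to 339 normalised reads (log2 fold change 2.10), H2-T24, from 173 to 364 (1.08), H2-Q4, Lst1 (0.74) and H2-Ab1. Some H2-T genes outside this rule, chosen after their values were seen, were near 0 in B6. H2-T15 had 2 counts in B6 and 385 in D2 (ratio 177, 95% exact interval 48.5 to 1463), H2-T9 had 1 and 58, H2-T5 2 and 86, and H2-T3 2 and 23. H2-T13 went the other way, from 70.9 ± 17.6 to 6.14 ± 1.28 normalised reads, a log2 fold change of -3.51. H2-T10, which shares the most windows with H2-T22, was higher by 0.35 on the log2 scale (SE 0.107, edgeR adjusted p = 0.041), and reads from near-identical H2-T genes may be split between them.

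**Figure D4:**
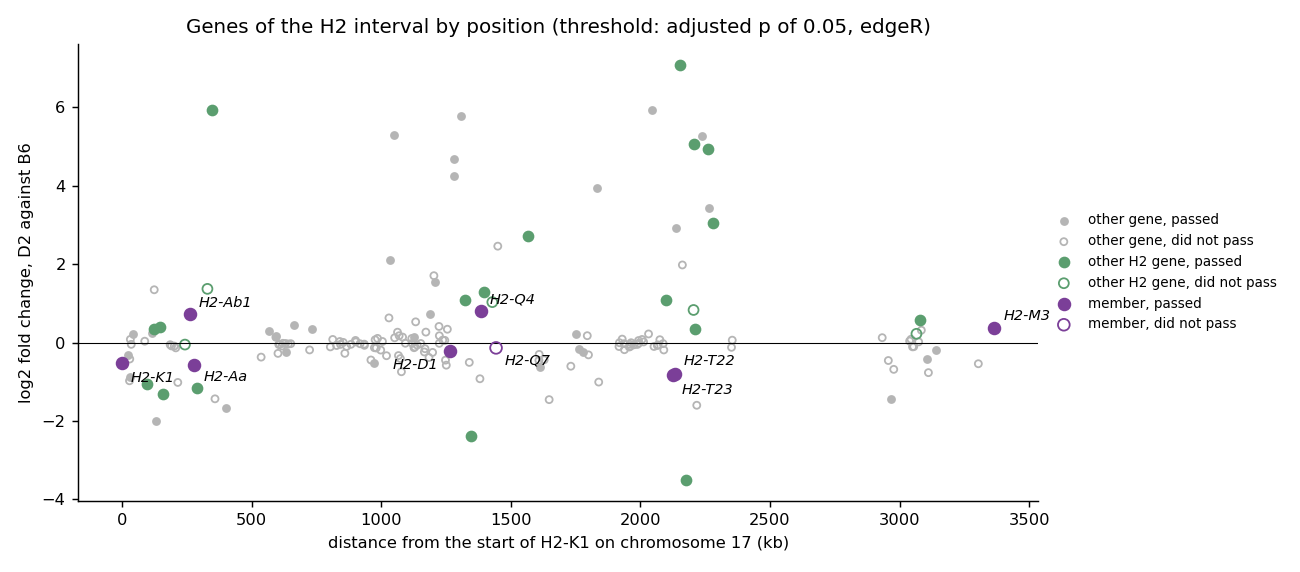
Log2 fold change of D2 against B6 (y axis) by distance from the start of H2-K1 in kb (x axis) for the 187 genes of the H2 interval; the 9 genes compared here are purple and named, other H2 genes are green and all other genes grey, and filled points passed an adjusted p of 0.05. H2 genes far from 0 lie above and below it, mixed with grey points near 0.

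The libraries had between 96977262 and 116776714 counted reads, and no pair of libraries of the same strain agreed within sampling noise. B6 replicates 3 and 5 had a mean log2 level of 12.0 for 6 cortex neuron markers, beside 8.32 to 9.36 in the other B6 mice and 9.75 to 11.1 in D2. Striatal neuron markers were present in every library, with a sum of 330283 to 516811 normalised reads, and 5 of 8 were lower in D2 and 0 higher. Of 10 microglia markers, P2ry12 was higher (0.26) and C1qa (-0.44) and Siglech (-0.41) were lower, with sums of 41541 to 46460 in B6 and 36868 to 44079 in D2. Of the same 10, 7 had an unadjusted edgeR p under 0.05 and 5 passed in DESeq2. Of 6 border macrophage markers 1 was higher and 1 was lower (sums 582 to 741 and 641 to 800), and of 8 endothelial markers 0 passed in edgeR, 3 had an unadjusted p under 0.05 and 2 passed in DESeq2 (sums 29873 to 35755 and 25428 to 32518). Of 12 lymphocyte and dendritic cell markers 10 were measured and 1 was higher, with sums of 1360 to 2115 and 1715 to 2089, and the T cell genes Cd3e and Cd3g had at most 8 counts per library. Of 6 astrocyte markers 1 was higher and 3 were lower, and of 6 oligodendrocyte, 5 blood and 5 choroid plexus markers 0 were higher and 4, 3 and 1 were lower. Beside all these marker counts, 8.5% of all genes were higher in D2 and 9.83% were lower. In bulk tissue, fewer cells of a type and less RNA per cell cannot be told apart, and the part of the other cell types' markers in the MHC differences was not tested. With the cortex marker level as a covariate, the same 9 genes passed, 3 higher and 6 lower.

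Genes whose levels followed those of B2m and H2-K1 within the strains were sought among the 15332 genes that averaged 100 counts or more, by the Pearson r of log2 values over 10 mice centred on their strain mean. For B2m these were Heatr5a (0.95), the microglial integrin Itgam (0.94) and Tmcc3 (0.93). For H2-K1 they were Pld4 (0.95), a nuclease of microglia and other phagocytes, Id1 (0.94) and Dvl1 (0.92). These values describe 10 mice and share library and dissection with the genes they follow.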

How the data were processed

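The authors trimmed the reads of the 10 NAc libraries (5 per strain, paired-end) with fastp, aligned them with STAR 2.7.10b to GRCm39, sorted the alignments with SAMtools 1.6 and ran featureCounts for the counts per gene, per the submitters' processing notes and the study's methods. The deposited table holds raw counts, with genes of median 0 removed by the authors (lowest median found here 0.5); the strand setting is not stated. The authors' columns of median counts, mean counts and libraries under 1, each held here as a score, were deposited beside them and were not used.

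Identifiers were joined to GENCODE M39, which gave 29519 of 29883 genes a symbol, exon lengths and coordinates. Counts as deposited were fitted with edgeR 4.0.16 (R 4.3.3; TMM, quasi-likelihood F test, strain as the factor, two-sided, Benjamini-Hochberg over all genes, threshold 0.05). SE was obtained as the size of the log2 fold change over the root of F. Normalised reads are counts scaled to the mean effective library size. Single genes were also compared with the exact permutation test. Each mouse is a replicate by its label. The age comes from the study's methods. The fits were tested on simulated data. Sequence windows, identities and promoters were computed with Biopython and Python.

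The genes, lists and naming rule were chosen with earlier results of these data known. Named were all 10 genes; Cd74, H2-Ea, H2-Eb1, Tap1, Tap2, Tapbp, Psmb8, Psmb9, Nlrc5 and Ciita; up to 5 called genes of each list that averaged 10 counts or more; the 5 largest changes each way in the H2 interval among genes that averaged 100 or more; and the 3 genes most like B2m and H2-K1. H2-DMa and H2-DMb2, Klrd1, H2-T13, H2-T15, H2-T9, H2-T5, H2-T3 and the named markers fall outside it and were chosen after their values were seen. Alternatives were DESeq2 1.42.0, other normalisations and filters, a replicate block, the cortex marker level as a covariate, a threshold of 0.01, summed class I counts and each mouse left out. Leaving out both B6 replicates 3 and 5 was added after the data were seen.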

Additional observations from a re-analysis of the deposited data

Results flagged for a closer look

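None of the 10 genes had a mouse far from the others of its strain by Dixon's test (gap over range above 0.71 for 5 mice). Among the 70 strain groups examined, 3 did, where chance gives about 1 in 20. Cd74 in B6 replicate 2 was at 338 normalised reads, beside 190 to 228 in the other 4 B6 mice, and this mouse also had the highest H2-Ab1 of its strain. H2-Oa in D2 replicate 3 was at 23.6 normalised reads, beside 12.7 to 14.1 in the other D2 mice. Tap2 in D2 replicate 1 was at 776 normalised reads, beside 679 to 694 in the others.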

How the results depend on the processing

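The directions of all 10 genes held under every alternative run. The calls of H2-K1, H2-D1, H2-Q4, H2-T22, H2-T23, H2-Ab1 and B2m held under all alternatives at 0.05, and those of H2-M3 and H2-Aa did not. H2-M3 had 0.35 without both B6 replicates 3 and 5, past neither threshold, and 0.38 at the threshold of 0.01, which it missed. H2-Aa lay between -0.65 and -0.50 with 1 mouse left out, passing in 6 of 10 such fits, and its -0.57 missed 0.01. At 0.01, 3415 genes passed in place of 5478. The class I sum moved from -0.37 to -0.26 with all 24 genes in it. With no call at stake, Cd74 changed sign without both B6 replicates 3 and 5 (-0.015) and lay between -0.0080 and 0.27 with 1 mouse left out, Ciita changed sign with total counts (0.025) and the cortex covariate (0.048) and lay between -0.12 and 0.23, and Psmb9 lay between -0.14 and 0.060. Tapbp passed under 8 alternatives, DESeq2 among them (0.14, adjusted p = 0.0268). Requiring 10 counts in every library dropped H2-Q7. The causes were not tested. With n = 5 and bulk tissue, changes of genes with few counts, such as H2-Q7 and Ciita, could not be resolved.

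The labels do not state whether mice with the same replicate number shared a litter or day. Same-numbered mice did not vary together in a uniform way (r = 0.37, -0.41, 0.37, 0.03 and -0.29 over 15388 genes). These values do not settle whether such mice shared a day, and the main fit paired no mice. With the replicate block, 4731 genes passed, H2-Aa had -0.58 (edgeR adjusted p = 0.0504) and the other 8 calls held. H2-Oa (-1.04) and Pdia3 (0.10) also missed the threshold under the block.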
